A study of Mus musculus with 2 samples.

Results

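Ly6c2-positive Th1 cells are described here among CD4 T cells sorted from the visceral adipose tissue of mice (VAT, abdominal fat). Members were chosen by measured UMI counts: a cell was a member if it had at least 1 unique molecular identifier (UMI, 1 captured RNA molecule) of Ly6c2, at least 1 UMI of Ccl5, Nkg7 or Cxcr3, and none of Foxp3, Il1rl1, Gzma, Klrk1 or Klrd1. Of 13191 cells kept in both libraries, 1624 were members, 820 in the CD27_KO library and 804 in the WT library. The study, which by its title asks what the CD27 and CD70 pathway does to Th2 cells resident in VAT, sets CD27-/- mice (CD27_KO) beside wild-type mice (WT), and the labels give C57BL/6 as the genotype of both. Each library holds TCRb+ CD4+ cells, sorted from pooled stromal vascular fractions (the cells left once adipocytes are removed) and profiled by droplet 3′ single-cell RNA sequencing. The labels give 10 mice and do not say whether that is per pool, give no age, sex, treatment or diet, and name no promoter or cell type that would restrict the deletion.

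Th1 cells are CD4 T cells that use the transcription factor T-bet, encoded by Tbx21, and secrete interferon-gamma, which acts on the cells around them. Ly6C, the protein of Ly6c2 and its near copy Ly6c1, is a GPI-anchored surface protein found on effector and memory T cells, monocytes and plasmacytoid dendritic cells. CXCR3 guides Th1 cells into inflamed tissue, CCL5 is a chemokine of effector lymphocytes, and NKG7 is a granule protein of cytotoxic and Th1 cells. CD27, on T cells, binds CD70 and, like other TNF receptor relatives, passes its signal to NF-kB through TRAF adaptors.

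Each group has 1 library, so nothing below was tested over replicates, and all intervals (95%, exact) cover counting error only. The CD27_KO library held 20191704 UMIs in 6893 barcodes and the WT library 16628623 UMIs in 6398 barcodes, of which 6853 CD27_KO and 6338 WT cells had 500 or more genes and no more than 10% mitochondrial UMIs. The median member had 2350 UMIs and 1075.5 genes in the CD27_KO library and 1946.5 UMIs and 887 genes in the WT library. Members had 2.89% mitochondrial and 27.2% ribosomal protein UMIs in the CD27_KO library, and 2.27% mitochondrial and 31.0% ribosomal protein UMIs in the WT library. The libraries shared 12 barcodes, none of them of members. The antibody feature in each matrix had 0 UMIs.

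Cd27, the deleted gene (mm10 chr6:125232622-125237010), was checked before any other gene. It had 2 UMIs (0.814 counts scaled to 1000000 UMIs, CPM) in CD27_KO members and 269 UMIs (136 CPM) in WT members. It was seen in 0.244% of CD27_KO members and 26.0% of WT members. Which exons were deleted is not stated in the labels.

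With all UMIs counted, Ly6c2-positive Th1 cells made up nearly the same share of both libraries. Their counterparts without a Ly6c2 UMI were a larger share of the CD27_KO library. At 1000 UMIs per cell, Ly6c2-positive Th1 cells were a smaller share of the CD27_KO library. Members were 11.97% (11.2 to 12.8) of kept CD27_KO cells and 12.7% (11.9 to 13.5) of kept WT cells, a ratio of 0.943 (0.855 to 1.04). Cells that met every other criterion but had no Ly6c2 UMI were 34.5% of CD27_KO cells and 21.3% of WT cells, a ratio of 1.62 (1.51 to 1.73). Of all cells in the gate, whatever their Ly6c2, 25.8% (24.2 to 27.3) of CD27_KO cells and 37.3% (35.3 to 39.4) of WT cells were members. With every cell thinned to 1000 UMIs these shares were 16.7% in CD27_KO and 27.5% in WT, and members were 7.52% (6.91 to 8.17) of CD27_KO cells and 10.0% (9.27 to 10.8) of WT cells, a ratio of 0.752.

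The share depends on the excluded receptors. Klrk1 and Klrd1, which encode the NK receptors NKG2D and CD94 and lie 4.38 and 4.36 Mb from Cd27 on chromosome 6, were lower in the CD27_KO library outside the gate, with log2 ratios over WT of -1.10 and -1.77 in all other T cells. They removed more WT cells than CD27_KO cells: 93 CD27_KO and 236 WT cells with Ly6c2 and a marker had Klrk1, and 64 CD27_KO and 193 WT cells had Klrd1. Without those criteria, members would be 13.2% of CD27_KO cells and 16.3% of WT cells, a ratio of 0.807. Il1rl1, which encodes the IL-33 receptor ST2, removed 196 CD27_KO and 234 WT cells, and Foxp3 removed 47 CD27_KO and 122 WT cells.

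**Figure D1:**
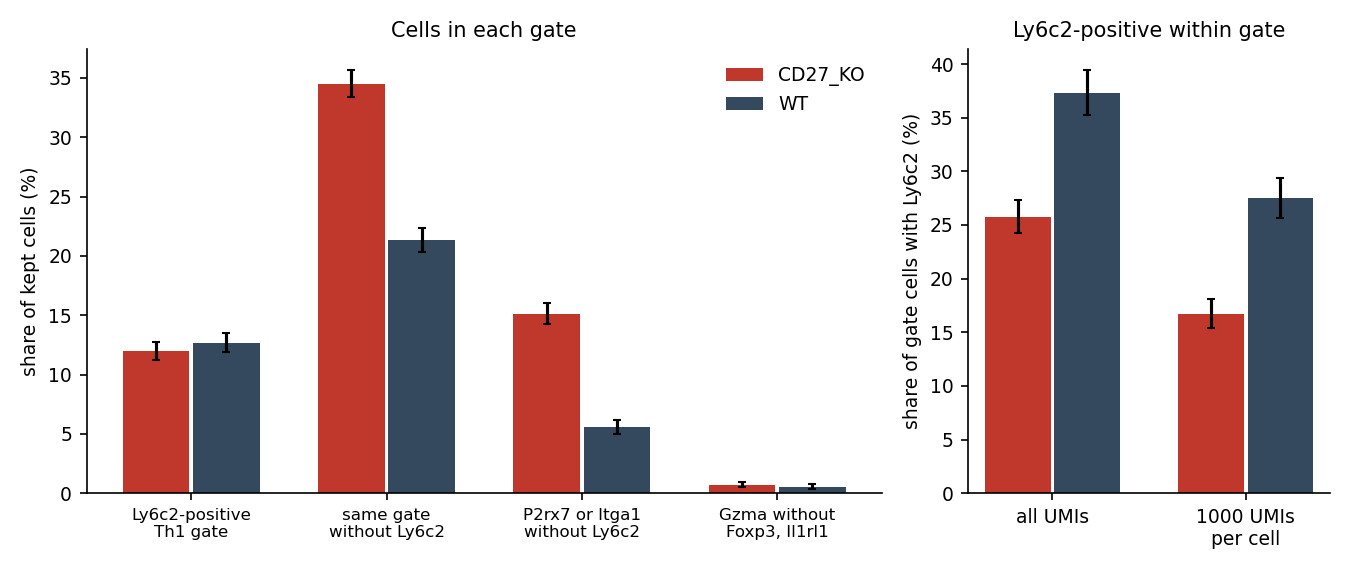
Share of kept cells in each gate (left, percent) and share of the gate that had Ly6c2 (right, percent), with all UMIs and with 1000 UMIs per cell; bars are single libraries, CD27_KO and WT, and error bars are 95% exact binomial intervals. The Ly6c2-positive bars stand at 11.97% and 12.7%, whereas the bars of the same gate without Ly6c2 stand at 34.5% and 21.3%.

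The genes that chose the members are given as a description. Ly6c2 (chr15:75108158-75111970) had 2090 UMIs in CD27_KO members and 2201 in WT members. A single Ly6c2 UMI admitted 354 CD27_KO and 280 WT members, and 69 CD27_KO and 72 WT members had 6 or more. Ccl5 was seen in 89.4% of CD27_KO members and 92.9% of WT members, Nkg7 in 67.7% of CD27_KO and 77.5% of WT members, and Cxcr3 in 40.6% of CD27_KO and 37.8% of WT members. Just outside the gate, 88 CD27_KO and 38 WT cells had Ly6c2 with neither a marker nor an excluded gene, and 96 CD27_KO and 151 WT cells were left out for 1 UMI of 1 excluded gene. In cells with Ccr7 and Lef1 but none of Ccl5, Nkg7, Cxcr3, Foxp3, Il1rl1, S100a4 or Maf, called Ccr7-positive background cells here, Ly6c2 was seen in 0.769% of CD27_KO cells and 0.610% of WT cells, at median depths of 2181 UMIs in CD27_KO and 1994.5 in WT. The 3′ end of the Ly6c2 transcript shares a stretch of at least 95% identity with Ly6c1, so reads of the pair may be split. Ly6c1 itself had only 56 UMIs in CD27_KO members and 43 in WT members.

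The label was checked with genes the rule did not use, and the cells carried T cell and Th1 transcripts. Cd3g, of the T cell receptor complex, was seen in 726 of the CD27_KO and 677 of the WT members, and 3 CD27_KO and 1 WT members had no UMI of Cd3d, Cd3e, Cd3g or Trbc2. Cd4 was seen in 294 CD27_KO and 203 WT members, Cd8a in 1 CD27_KO and 0 WT members, and Cd8b1 in 18 CD27_KO and 6 WT members, with 22 UMIs in CD27_KO and 7 in WT. Tbx21 was seen in 12.9% (10.7 to 15.4) of CD27_KO members and 10.8% (8.76 to 13.2) of WT members. Ifng, the interferon-gamma gene, was seen in 25.4% (22.4 to 28.5) of CD27_KO members and 22.4% (19.6 to 25.4) of WT members. Neither gene was seen in the 130 CD27_KO and 328 WT background cells. These were chosen to lack Ccl5, Nkg7 and Cxcr3, so this absence cannot serve as a check of the label. A floor of 3 over the number of cells allows shares of up to 2.31% in CD27_KO and 0.915% in WT. Against all other T cells, members had 91 of 8259 genes (1.1%) at least 1.5-fold higher and 254 (3.08%) at least 1.5-fold lower in both libraries. Members had higher Ifng, by log2 ratios of 0.81 in the CD27_KO library and 1.27 in the WT library, and higher Tbx21, by 0.99 in CD27_KO and 1.29 in WT. Gata3 was lower in members than in all other T cells, at -1.10 in CD27_KO and -0.96 in WT, and Eomes, a relative of T-bet, had 2 UMIs in CD27_KO members and 6 in WT members. The other T cells differ from members in the excluded genes too, since Foxp3 and Il1rl1 cells are among them. Against the cells of the same gate without Ly6c2 the differences were smaller. Ifng was at 192 CPM in CD27_KO members and 186 CPM in those cells, and in WT at 147 and 120 CPM. Tbx21 was at 51.3 and 38.7 CPM in CD27_KO, and at 46.9 and 37.5 CPM in WT. Gata3 was seen in 34.3% of CD27_KO and 23.4% of WT members, more than Tbx21 or Ifng. These Th1 transcripts were thus not particular to members.

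A few members carried transcripts of other cells. Siglech, which marks plasmacytoid dendritic cells, had 44 UMIs in 5 CD27_KO members and 7 UMIs in 3 WT members. Those 5 CD27_KO members held 105 of 114 Tyrobp, 62 of 80 Tcf4, 48 of 100 Irf8, 25 of 51 Ccr9 and 61 of 307 Plac8 UMIs of CD27_KO members. Defining genes of MHC class II-bearing cells were seen in 13 CD27_KO and 16 WT members, of CD8 T cells in 18 CD27_KO and 6 WT members, and of gamma-delta T cells in 11 CD27_KO and 19 WT members. Those of macrophages and monocytes were seen in 2 CD27_KO and 6 WT members, of B cells in 6 CD27_KO and 5 WT members, and of NK cells in 3 CD27_KO and 37 WT members, the last through Klrb1c, with 3 CD27_KO and 43 WT UMIs. The summed level of the plasmacytoid list was 295 CPM in CD27_KO and 188 CPM in WT members, of the macrophage and monocyte list 45.2 CPM in CD27_KO and 18.6 CPM in WT members, and of the NK list 63.9 CPM in CD27_KO and 72.6 CPM in WT members. The wider list of 5 MHC class II genes summed to 139 CPM in CD27_KO and 78.1 CPM in WT members. In CD27_KO 63 of its 342 UMIs were in 1 member, and in WT 58 of its 155 UMIs were in 1 member. The adipocyte genes Adipoq and Plin1 and the endothelial gene Cdh5 were at 0 in both. In all, 49 CD27_KO and 87 WT members had a defining UMI of another lineage or lacked a T cell UMI. Without them members were 11.3% of WT cells, while the CD27_KO share stayed within its counting interval of 11.2 to 12.8%. The ratio of the shares also stayed within its interval of 0.855 to 1.04.

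Few genes differed by 1.5-fold between members and cells of the same gate without a Ly6c2 UMI. Those cells may include some whose Ly6c2 RNA was not captured, which would make the differences smaller, and their number was not tested. A single Ly6c2 UMI admitted 354 CD27_KO and 280 WT members. With members thinned, 61.9% in CD27_KO and 71.8% in WT would be expected to keep a Ly6c2 UMI. Of 5099 genes with at least 100 UMIs in each library and outside the rule, 9 (0.177%) were at least 1.5-fold higher in members in both libraries and 9 (0.177%) at least 1.5-fold lower. Each library alone gave more, with 34 genes higher (0.667%) and 26 lower (0.51%) in CD27_KO, and 68 higher (1.33%) and 73 lower (1.43%) in WT. With cells thinned before the gate, 3 genes were higher and 16 lower in both.

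Among the genes higher in members, Xcl1, which encodes the lymphotactin chemokine (chr1:164931644-164935527), was 1.05 higher in log2 ratio in the CD27_KO library and 0.98 higher in the WT library. It was at 81.4 CPM in CD27_KO members and 39.4 CPM in the CD27_KO cells without Ly6c2, and at 108 CPM in WT members and 54.8 CPM in the WT cells without Ly6c2. Plac8 was higher by 1.18 in CD27_KO and 0.96 in WT, although 61 of its 307 CD27_KO UMIs came from the Siglech cells. Slamf7, a receptor of the SLAM family on effector lymphocytes, was higher by 0.66 in CD27_KO and 1.12 in WT. Entpd1, which encodes the ATP-degrading enzyme CD39, was higher by 0.64 in CD27_KO and 0.88 in WT, and the interferon-inducible GTPase gene Gbp9 by 0.71 in CD27_KO and 0.84 in WT. The remaining 4 were Tm6sf1, Dcp1b, Brd3 and Ccdc136, and Dcp1b was lower by 0.56 in the CD27_KO library with thinning before the gate.

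The genes lower in members included several of regulatory and follicular helper cells. Cd200, which encodes a ligand of an inhibitory receptor (chr16:45382135-45409053), was at -1.12 in CD27_KO and -1.13 in WT. Ctla4, an inhibitory receptor, was at -0.66 in CD27_KO and -0.89 in WT. Tnfrsf4, which encodes OX40, was at -0.68 in CD27_KO and -1.28 in WT, and Ikzf2, which encodes Helios, at -0.69 in CD27_KO and -1.11 in WT. The interleukin-6 receptor gene Il6ra was at -0.74 in CD27_KO and -0.81 in WT, and Capg, an actin-capping gene, at -0.76 in CD27_KO and -1.01 in WT. Adk, Wdr12 and Sdcbp2 completed the set. The list of Treg-associated genes had medians of -0.24 in CD27_KO and -0.998 in WT over its 8 measured genes, beside medians over all genes of 0.01 in CD27_KO and 0.02 in WT. The list of follicular helper and Slamf6 memory genes had medians of -0.34 in CD27_KO and -0.92 in WT over 6. The T cell identity list stood at 0.01 in CD27_KO and -0.00 in WT over 16 genes.

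**Figure D2:**
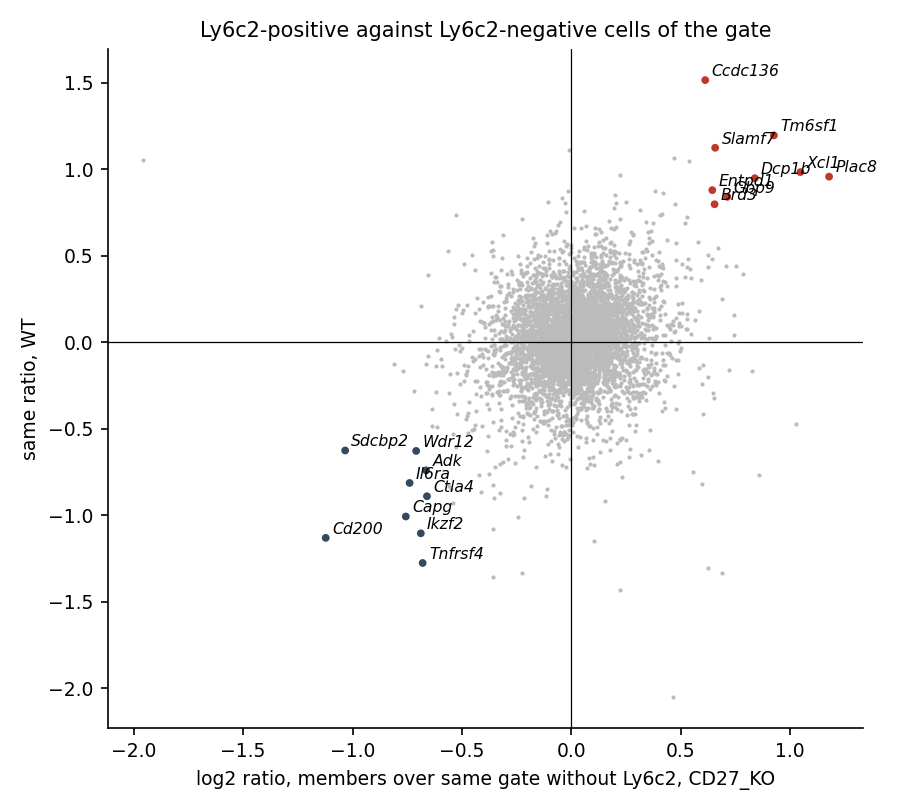
Log2 ratio of Ly6c2-positive members over cells of the same gate without Ly6c2, in the CD27_KO library (horizontal axis) and the WT library (vertical axis), 1 point per gene for 5099 genes. The coloured and named points are the 9 genes at least 1.5-fold higher and the 9 at least 1.5-fold lower in both, with Xcl1 at 1.05 in CD27_KO and 0.98 in WT and Cd200 at -1.12 in CD27_KO and -1.13 in WT.

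Between genotypes, more genes were higher than lower in CD27_KO members. Of 4966 genes that reached 100 UMIs over both libraries, 331 (6.67%) stood 1.5-fold or more higher in CD27_KO members and 59 (1.19%) at least 1.5-fold lower. The median gene stood at 0.13 in log2 ratio of CD27_KO over WT, and after centring on it 162 genes were higher and 117 lower. Of the 331 higher genes, 105 were also at least 1.5-fold higher in CD27_KO among the cells without Ly6c2, and of the 59 lower genes 27 were also lower there, where 289 of 4965 genes (5.82%) were higher and 51 (1.03%) lower. In all other T cells 4.05% of the genes were higher and 0.946% lower. All these comparisons come from the same 2 libraries, and whether members differ from the other cells in their response was not tested. Genes with at least 20 UMIs, the limit used for gene lists, were higher in 13.9% and lower in 4.19% of 9027, with a median of 0.15.

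**Figure D3:**
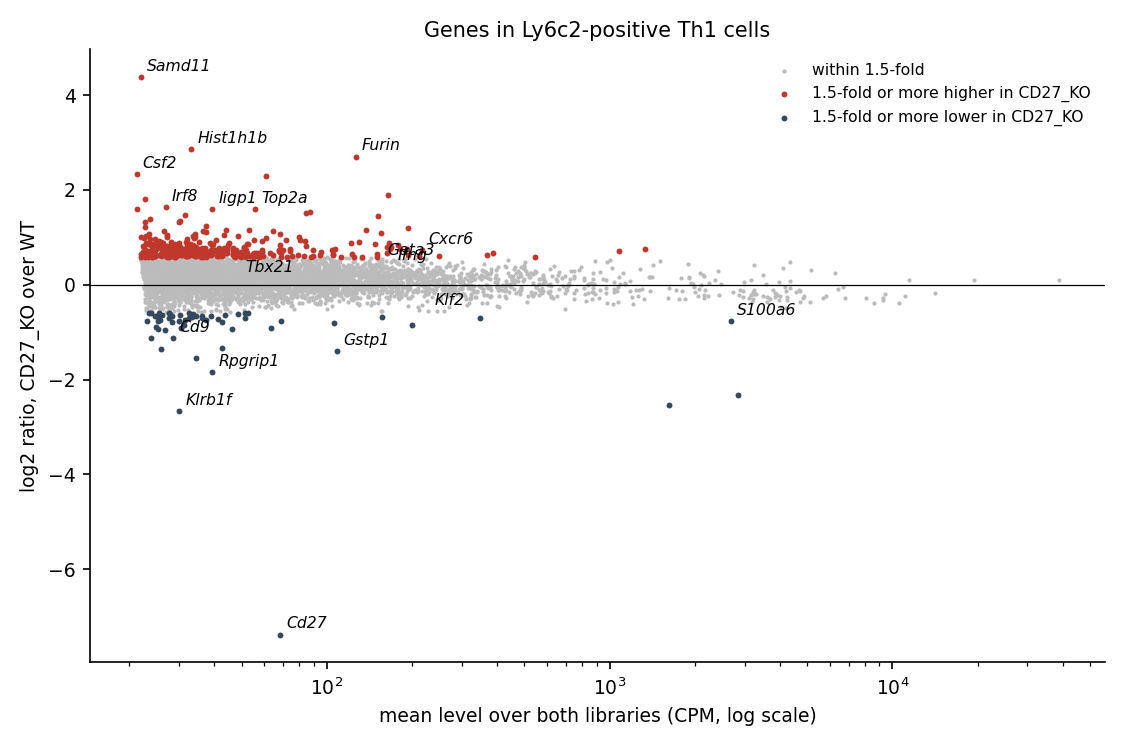
Log2 ratio of CD27_KO over WT (vertical axis) against the mean level of both libraries in CPM (horizontal, log scale) for genes with at least 100 UMIs in Ly6c2-positive Th1 cells, 1 point per gene. Points above lie 1.5-fold or more higher in CD27_KO (331 genes) and points below 1.5-fold or more lower (59 genes), with Furin at 2.70, Samd11 at 4.38 and Cd27 at -7.38.

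Genes of the Th1 programme differed in different ways. Tbx21 (chr11:97098071-97115331) was at 51.3 CPM in CD27_KO members and 46.9 CPM in WT members, a log2 ratio of 0.13 (-0.27 to 0.53). Ifng (chr10:118441046-118445892) was at 192 CPM in CD27_KO members and 147 CPM in WT members, 0.38 (0.17 to 0.60), below the 1.5-fold line. At 1000 UMIs per cell, the share expected over all draws was 12.6% of CD27_KO members and 12.3% of WT members for Ifng, and 5.24% of CD27_KO and 4.96% of WT members for Tbx21. Il18rap, a subunit of the IL-18 receptor that boosts interferon-gamma production, was at 105 CPM in CD27_KO and 54.9 CPM in WT members, 0.94 (0.61 to 1.28). Cxcr6, a receptor for CXCL16 common on tissue T cells, was at 271 CPM in CD27_KO and 164 CPM in WT members, 0.73 (0.53 to 0.92). With thinning before the gate it stood at 0.50.

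The partner subunit gene Il18r1 was at 0.54 (0.34 to 0.75). Stat4, which carries the IL-12 signal, was at 0.07, Il12rb2, the inducible IL-12 receptor subunit, at 0.04, and Runx3, a cofactor of T-bet, at 0.08. Txk, a kinase of the Tec family, was lower, with 143 CPM in CD27_KO and 257 CPM in WT members, -0.84 (-1.04 to -0.64). Tnf was at -0.31 and Fasl, the death receptor ligand gene, at -0.14. Of 15 measured genes of the list, 3 were at least 1.5-fold higher and 1 lower, beside 13.9% and 4.19% over all genes. The list median was 0.13, close to that of all genes.

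Genes induced by interferon-gamma stood higher in CD27_KO members as a group, although Ifng itself was below the 1.5-fold line. Of 21 genes in the list, 8 were at least 1.5-fold higher and 0 lower, beside 13.9% and 4.19% over all genes. The list median was 0.49 in members, 0.34 in the cells without Ly6c2 and 0.35 in all other T cells, so the shift was not particular to members.

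Iigp1, an interferon-inducible GTPase gene, was at 59.1 CPM in CD27_KO and 19.7 CPM in WT members, a log2 ratio of 1.59 (1.07 to 2.14), beside 1.39 in the cells without Ly6c2 and 1.28 in all other T cells. It was seen in 11.95% (9.81 to 14.4) of CD27_KO and 3.98% (2.74 to 5.57) of WT members, and at 1000 UMIs per cell in 5.24% of CD27_KO and 1.74% of WT members. Ccr7-positive background cells with an Iigp1 UMI were 4.62% in CD27_KO and 2.13% in WT, and at 1000 UMIs per cell 1.89% in CD27_KO and 1.41% in WT, so the WT members were close to that background. Gbp2, a guanylate-binding protein gene, was at 46.4 CPM in CD27_KO and 22.2 CPM in WT members, 1.07 (0.55 to 1.60). Gbp4 was at 0.65, Gbp8 at 0.66, Gbp6 at 0.59 and Irgm1, another GTPase gene, at 0.68, and since the annotated loci of Gbp4, Gbp8 and Gbp9 overlap, their reads may be split. Irf8, an interferon-induced factor that dendritic cells also use, was at 40.7 CPM in CD27_KO and 13.1 CPM in WT members, 1.64 (1.001 to 2.32), but 48 of its 100 CD27_KO UMIs were in the 5 Siglech members, and without cells of other lineages it stood at 1.23. Irf8 was at 0.32 without the Klrk1 and Klrd1 criteria and at 0.17 with thinning before the gate. With that thinning Irgm1 was at 0.29, under the 1.5-fold line, while Gbp2 was at 1.46 and Iigp1 at 1.88. With at least 2 Ly6c2 UMIs asked of a member, Gbp2 stood at 0.51. The immunoproteasome genes Psmb8 and Psmb9 were at -0.14 and 0.01, and Socs1, a feedback inhibitor, at -0.22. In the wider type I interferon list, 4 of 26 genes were higher, near the 13.9% over all genes, and 0 lower, beside 4.19%. Its median was 0.26.

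The promoters of 3 of the 8 higher genes, in RefSeq (GRCm38.p6), are shown because they hold the letters of the 2 classical interferon elements. Each run is the 250 bases before the gene's start on its own strand, and capitals mark matches, on either strand, to the gamma-activated site (GAS, TTCNNNGAA) or the interferon-stimulated response element (ISRE, here GAAA, any 2 bases and GAAA).
Gbp2 (chr3:142620413-142620662, plus strand): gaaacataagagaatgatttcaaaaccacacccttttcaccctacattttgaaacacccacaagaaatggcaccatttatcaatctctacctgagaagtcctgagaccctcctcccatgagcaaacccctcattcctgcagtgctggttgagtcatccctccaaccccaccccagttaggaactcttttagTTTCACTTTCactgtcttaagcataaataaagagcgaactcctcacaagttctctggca
Irf8 (chr8:120736108-120736357, plus strand): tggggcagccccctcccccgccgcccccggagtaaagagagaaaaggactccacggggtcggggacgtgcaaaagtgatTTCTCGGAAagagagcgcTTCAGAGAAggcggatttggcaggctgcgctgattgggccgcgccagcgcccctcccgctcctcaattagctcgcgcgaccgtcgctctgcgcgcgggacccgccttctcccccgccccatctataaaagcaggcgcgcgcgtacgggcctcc
Irgm1 (chr11:48871421-48871670, minus strand): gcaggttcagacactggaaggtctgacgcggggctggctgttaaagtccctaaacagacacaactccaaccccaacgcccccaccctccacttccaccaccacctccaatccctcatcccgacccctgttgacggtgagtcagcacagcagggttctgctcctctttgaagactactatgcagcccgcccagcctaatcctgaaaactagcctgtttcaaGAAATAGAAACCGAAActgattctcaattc
The Gbp2 window held 1 ISRE match, the Irf8 window 2 GAS matches, and the Irgm1 window 2 ISRE matches that overlap. Of 14 list genes with a promoter entry, 7 held a GAS match and 8 (57.1%) an ISRE match, where 7.18% and 3.04% of 27025 promoters of the same length did. Gbp3, at a log2 ratio of -0.00, had 2 ISRE matches.

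**Figure D4:**
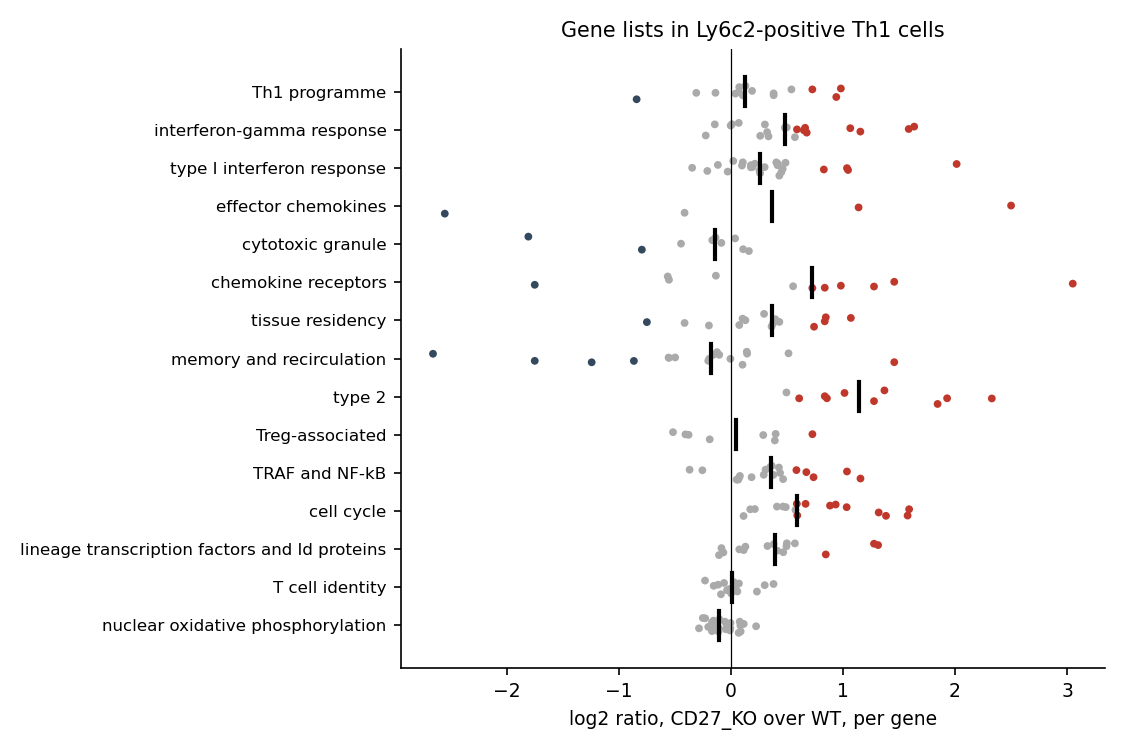
Log2 ratio of CD27_KO over WT in Ly6c2-positive Th1 cells for each gene (points) of 15 lists (rows), with black bars at list medians; red points are at least 1.5-fold higher in CD27_KO, dark points at least 1.5-fold lower, and genes had at least 20 UMIs over both libraries. The interferon-gamma list has its median at 0.49 and no dark point, while the Th1 list has its median at 0.13.

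Of 11 chemokine receptor and migration genes measured, 6 were at least 1.5-fold higher in CD27_KO members and 1 lower, with a median of 0.73. Over all genes 13.9% were higher and 4.19% lower. The list median was 0.37 in the cells without Ly6c2 and 0.02 in all other T cells, and in members it ranged from 0.27 to 0.74 under the alternatives. Cxcr6 stood at 0.50, under the 1.5-fold line, with thinning before the gate. Besides Cxcr6, Ccr4, a receptor of type 2 and skin-homing cells, was at 0.84 (0.33 to 1.37), and Ccr2, a monocyte and effector cell receptor, at 0.56. Cx3cr1 had 41 UMIs in CD27_KO and 4 in WT members. Ccr9, the gut-homing receptor, was at 1.46, but 25 of its 51 CD27_KO UMIs were in Siglech cells and without cells of other lineages it stood at 0.15.

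Ccr7, the lymph node homing receptor, had 14 UMIs in CD27_KO and 38 in WT members, a log2 ratio of -1.75 (-2.75 to -0.83). Klf2, a factor that keeps T cells circulating, was at 185 CPM in CD27_KO and 272 CPM in WT members, -0.55 (-0.74 to -0.37), and its target S1pr1, the receptor for exit from tissue, at -0.55 (-0.77 to -0.33). Dapl1, a gene of resting T cells, was at -2.66, while Tcf7 and Lef1, factors of naive and memory cells, were at 0.10 and -0.00. The memory and recirculation list had 4 genes lower and 1 higher of 18, beside 4.19% lower and 13.9% higher over all genes. Its median was -0.17 in members, -0.48 in the cells without Ly6c2 and -0.63 in all other T cells.

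Among residency genes, Bhlhe40, a transcription factor of tissue-resident T cells, was at 229 CPM in CD27_KO and 128 CPM in WT members, 0.84 (0.62 to 1.06). Prdm1, which encodes Blimp-1, was at 0.85 (0.50 to 1.21) and P2rx7, a receptor for extracellular ATP, at 0.74 (0.46 to 1.03). Zfp683, which encodes Hobit, was lower, at -0.75 (-1.51 to -0.01) with 28 UMIs in CD27_KO and 38 in WT members. In the list 4 of 15 genes were higher and 1 lower, beside 13.9% and 4.19% over all genes. Its median was 0.36 in members, 0.42 in the cells without Ly6c2 and 0.38 in all other T cells. A P2rx7 or Itga1 UMI was seen in 42.9% (39.5 to 46.4) of CD27_KO members and 29.4% (26.2 to 32.6) of WT members, and at 1000 UMIs per cell in 20.6% of CD27_KO and 15.96% of WT members.

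Genes of type 2 cells were higher in CD27_KO members, at low counts. The list has 17 genes, and 10 reached 20 UMIs, although the rule removes cells with Il1rl1. Of these, 9 stood 1.5-fold or more higher and 0 lower, beside 13.9% and 4.19% over all genes. The list median was 1.15 in members, 0.80 in the cells without Ly6c2 and 0.84 in all other T cells. Il4, the type 2 cytokine gene, was seen in 27 CD27_KO and 7 WT members, a log2 ratio of 1.93 (0.73 to 3.35), and it was at 2.42 in the cells without Ly6c2. Gata3, the type 2 transcription factor, was seen in 34.3% (31.0 to 37.6) of CD27_KO members and 23.4% (20.5 to 26.5) of WT members, at 0.50 (0.27 to 0.72). Il9r was at 1.84 and Epas1, a hypoxia-inducible factor, at 1.37. Csf2, the GM-CSF gene, was at 2.33, with 38 of its 87 CD27_KO UMIs in 1 cell, and without the highest cell of each library it stood at 1.85, and with thinning before the gate at 1.10. Il5 or Il13 was seen in 4 CD27_KO and 1 WT members.

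Granzyme genes were sparse in members, and the rule excludes Gzma, while some gene of the granule list was seen in 794 CD27_KO and 781 WT members. Gzmb, the granzyme B gene, had 17 UMIs in CD27_KO and 48 in WT members, -1.81 (-2.70 to -0.98), and Gzmk 25 in CD27_KO and 35 in WT members. Ccl4, a chemokine of activated lymphocytes, had 15 UMIs in CD27_KO and 71 in WT members, with 21 of the WT UMIs in 1 cell. Srgn, the granule proteoglycan gene, was at 0.16. Of 9 measured granule genes, 0 were higher and 2 lower in CD27_KO, beside 13.9% and 4.19% over all genes, with a median of -0.14. Against all other T cells, which need not carry Ccl5, Nkg7 or Cxcr3, the list had medians of 0.77 in CD27_KO and 0.81 in WT. Against the cells without Ly6c2 they were 0.33 in CD27_KO and 0.34 in WT. Its summed level was 1855 CPM in CD27_KO members and 1929 CPM in the other CD27_KO T cells, and in WT 1838 and 1814 CPM.

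The adaptor genes Traf2 and Traf5 stayed below 1.5-fold, and 5 of 20 genes of the TRAF and NF-kB list stood higher. Traf2 was at 0.29 (-0.41 to 1.02) and Traf5 at 0.07 (-0.61 to 0.77). Birc3, which encodes the ubiquitin ligase cIAP2, was at 60.7 CPM in CD27_KO and 27.2 CPM in WT members, 1.16 (0.70 to 1.63), beside 0.59 in the cells without Ly6c2. Nfkbia, an inhibitor of NF-kB that NF-kB itself induces, was at 477 CPM in CD27_KO and 299 CPM in WT members, 0.67 (0.53 to 0.82), beside 0.18 without Ly6c2. The 5 higher genes, beside 13.9% of all genes, were Birc3, Bcl3, Relb, Nfkbia and Nfkbiz, with 0 lower and a list median of 0.36. Cd70 had no UMI in any member.

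Members with transcripts of dividing cells were a larger share in the CD27_KO library, as were such cells in the same gate without Ly6c2. There, Mki67 or Top2a was seen in 9.43% of CD27_KO and 5.85% of WT cells. Mki67 or Top2a, markers of dividing cells, was seen in 10.5% (8.47 to 12.8) of CD27_KO members and 5.97% (4.43 to 7.84) of WT members, and at 1000 UMIs per cell in 4.82% of CD27_KO and 2.46% of WT members. Top2a, a topoisomerase gene, was at 83.5 CPM in CD27_KO and 27.7 CPM in WT members, 1.59 (1.15 to 2.05). Of 17 cell cycle genes, 10 were higher and 0 lower, beside 13.9% and 4.19% over all genes. The list median was 0.59 in members, 0.92 in the cells without Ly6c2 and 0.83 in all other T cells. Without members carrying Mki67 or Top2a, the median in members was 0.27. The histone genes Hist1h1b, at 2.85, and Hist1h2ae, at 2.29, were among the 12 furthest higher genes. The tail of Hist1h2ae matches 10 other genes, so its reads may be split.

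Among the genes furthest apart, Furin, Samd11 and Gstp1 were also apart in all other T cells. Of the 331 higher genes 85 were also at least 1.5-fold higher in all other T cells, and of the 59 lower genes 21 were also lower there. Furin, which encodes a protease that cuts proproteins (chr7:80388585-80405436), was at 219 CPM in CD27_KO members and 33.8 CPM in WT members, 6.50-fold (5.04 to 8.51), and was seen in 19.5% (16.9 to 22.4) of CD27_KO members and 7.21% (5.52 to 9.23) of WT members. The last bases of its transcript match 45 other genes, so its reads may be split. Its log2 ratio was 2.70 in members, 2.37 in the cells without Ly6c2 and 1.17 in all other T cells. Members had less Furin than all other T cells, by -0.73 in the CD27_KO library and -2.26 in the WT library. Samd11 (chr4:156246966-156255657) had 103 UMIs in CD27_KO and 4 in WT members, and its log2 ratio was 4.38 (2.98 to 6.28) in members and 4.11 in all other T cells. Gstp1, a glutathione transferase gene with the near copy Gstp2, was at 59.9 CPM in CD27_KO and 157 CPM in WT members, -1.39 (-1.69 to -1.11), and at -1.47 in all other T cells. Several lower genes lie on chromosome 6 with Cd27. Cd9, a tetraspanin gene 0.228 Mb away, was at -1.13, Clec2i, 3.65 Mb away, at -1.34, and Klrb1f, an NK receptor gene 3.81 Mb away, at -2.67, and in the cells without Ly6c2 they were at -2.05, -1.46 and -2.05. S100a6, a calcium-binding protein gene, was at 1981 CPM in CD27_KO and 3374 CPM in WT members, -0.77 (-0.82 to -0.71), beside -0.69 in the cells without Ly6c2.

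**Figure D5:**
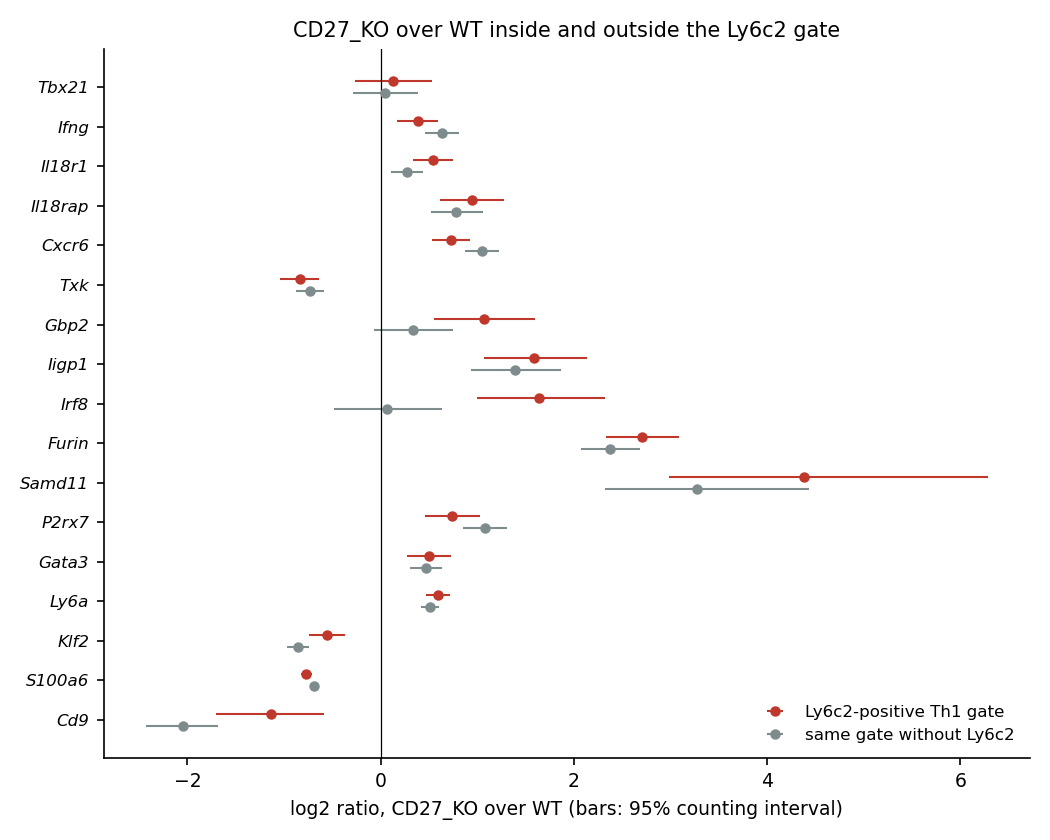
Log2 ratio of CD27_KO over WT for named genes (rows) in Ly6c2-positive Th1 cells (red) and in the same gate without Ly6c2 (grey), with 95% intervals for counting error. Furin stands at 2.70 in members and 2.37 without Ly6c2, while Irf8 stands at 1.64 in members and 0.07 without Ly6c2.

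Among members, levels varied with the number of Ly6c2 UMIs, given here for 1, 2, 3 to 5 and 6 or more UMIs in that order. Plac8 was at 71.4, 115, 121 and 358 CPM in CD27_KO members and at 30.1, 47.9, 40.1 and 88.6 CPM in WT members. Ikzf2 was at 76.4, 58.4, 58.4 and 34.3 CPM in CD27_KO members and at 101, 141, 68.7 and 23.3 CPM in WT members. In CD27_KO, 3 of the 69 members with 6 or more Ly6c2 UMIs had Siglech, and without Siglech cells Plac8 was at 231 CPM in that class and 96.6 CPM in the class of 3 to 5. Both libraries thus had the most Plac8 and the least Ikzf2 in the class with the most Ly6c2. Counts there were small, with 9 Ikzf2 UMIs in CD27_KO and 5 in WT, and 19 Plac8 UMIs in WT. That class is also the deepest, with median depths of 2883 UMIs in CD27_KO and 2553 in WT. Klf2 was lower with more Ly6c2 in WT members, at 334, 269, 246 and 182 CPM, and at 175, 192, 206 and 156 CPM in CD27_KO members showed no such order. Tbx21 stayed between 48.7 and 54.3 CPM across the classes in CD27_KO members and between 44.3 and 60.6 CPM in WT members.

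Members with an Ifng UMI differed between libraries in Furin. In CD27_KO, Furin was at 386 CPM in the 208 members with Ifng and at 143 CPM in the 612 without, and in WT it was at 31.2 CPM in the 180 members with Ifng and 34.7 CPM in the 624 without. Il18rap was at 132 CPM with Ifng and 93.2 CPM without in CD27_KO members, and at 52.6 CPM with Ifng and 55.7 CPM without in WT members. Cells with Ifng were deeper, with medians of 3131 UMIs with Ifng and 2228 without in CD27_KO, and 2274.5 with Ifng and 1876 without in WT.

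Levels were also compared with the gates most like this one. Ifng was at 192 CPM in CD27_KO members, 184 CPM in CD27_KO cells with P2rx7 or Itga1 and no Ly6c2, and 454 CPM in the 50 CD27_KO cells with Gzma. In WT it was at 147 CPM in members, 114 CPM with P2rx7 or Itga1, and 73.1 CPM in the 34 cells with Gzma. Xcl1 was at 81.4, 46.1 and 151 CPM in these gates in CD27_KO and at 108, 58.9 and 83.5 CPM in WT. The P2rx7 or Itga1 gate held 15.1% of CD27_KO cells and 5.54% of WT cells, a ratio of 2.73 (2.42 to 3.09), beside 0.943 for members, and the difference between these ratios was not tested.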

How the data were processed

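Droplet 3′ single-cell RNA sequencing of TCRb+ CD4+ cells from VAT was deposited as UMI counts per gene and cell, made by the authors with Cell Ranger 6.1.1 against mm10, per the file headers and the submitters' processing notes. The library kit is named differently in the series design and the sample protocol, and both libraries carry 1 genotype entry, so groups come from the titles. The members and lists were chosen with earlier results of these data known. The gate of Ccr7-positive background cells and 4 alternatives were chosen after seeing the data. Gene positions are from GENCODE vM21 (mm10, 1-based) and promoters from RefSeq.

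Counts were summed over members of each library, scaled to CPM and compared as log2 ratios of CD27_KO over WT, with exact conditional binomial intervals, exact Poisson intervals for sums and Clopper-Pearson intervals for shares (95%). A gene counted as higher or lower from 1.5-fold, given a sum of 100 UMIs, or 20 for members of the 30 lists. A count of 0 was set against a floor of 3 counts. No test across samples was possible, with 1 library per group. Gates were thinned to 1000 UMIs per cell in 1 random draw, without shallower cells. Shares of members with a gene's UMI at that depth are exact expected values over all draws, chosen after seeing the data. Doublets were not removed, and no batch is named apart from the library. Intervals treat UMIs as independent molecules.

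Genes named were the genes of the rule and a fixed set, the 12 furthest in each direction between genotypes and against the cells without Ly6c2, and up to 5 members of each list with at least 50 UMIs. Other list members named were chosen after their values were seen, and some genes that the rule names are not reported here. Of the 21 interferon-gamma list genes, 14 had a promoter entry. The last 300 bases of named transcripts were matched to all transcripts with BLAST 2.17.0, at 95% identity over at least 90 bases. Counts for CD27_KO over WT members were also simulated as independent Poisson draws, without clumping in single cells or differences between libraries. The 1.5-fold line was passed by 95 of 100 genes simulated with a 2-fold difference and by all 100 with 4-fold. It was also passed by 37 of 4796 unchanged genes, of 4992 tested, and more may pass it in the real data. Python 3.11.15, numpy 2.4.6, pandas 2.3.3, scipy 1.17.1 and matplotlib 3.10.9 were used.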

Additional observations from a re-analysis of the deposited data

Results flagged for a closer look

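For 5 genes the CD27_KO and WT cells differed by at least 1.5-fold in opposite directions in members and in the same gate without Ly6c2, and the difference between the gates was not tested. Several of them had fewer than 100 UMIs over both libraries in members, where counting error is large. At that limit, 1 of the 331 higher genes and 0 of the 59 lower genes were opposite by 1.5-fold in the cells without Ly6c2. Zfp683 had a log2 ratio of CD27_KO over WT of -0.75 in members and 0.69 in the cells without Ly6c2. Areg, the amphiregulin gene, was at 0.61 in members and -1.41 without Ly6c2, with 41 of its 85 CD27_KO UMIs in 1 member. Ccr9 was at 1.46 in members and -0.60 without Ly6c2, with 25 of its 51 CD27_KO UMIs in Siglech cells. Wdhd1 was at -0.68 in members and 0.67 without Ly6c2, with 27 UMIs in CD27_KO and 35 in WT members. Dnah8 was at 0.59 in members and -0.72 without Ly6c2, with 54 UMIs in CD27_KO and 29 in WT members.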

How the results depend on the processing

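No paired analysis was possible because each group has 1 library, and for the same reason no library could be left out. Of 2788 values recomputed under 17 alternatives, 2516 stayed within their counting interval or within 1.5 times for counts, 252 moved and 20 reversed; the cause was not tested. The share ratio of 0.943 became 0.822 with at least 2 Ly6c2 UMIs (shares 6.80% in CD27_KO and 8.27% in WT), 0.845 with at least 2 markers (8.67% and 10.3%), 0.807 without Klrk1 and Klrd1 (13.2% and 16.3%), 0.844 without cells with 2 UMIs of another lineage's list (6.81% and 8.08%) and 0.752 with thinning before the gate (7.52% and 10.0%). The shares were 13.8% and 14.1% at 1000 genes or more per cell. Without cells with a defining gene of another lineage the WT share was 11.3%, and the CD27_KO share and the ratio stayed within their counting intervals. Counts of 331 higher and 59 lower genes became 163 and 29 without cells of another lineage's list, 75 and 29 thinned, 162 and 117 centred, 1251 and 378 at 20 UMIs, 2329 and 1123 at 1 UMI, and 41 and 11 at 2-fold. Counts of 9 and 9 against the cells without Ly6c2 became 3 and 16 thinned, and 91 (1.1%) and 254 (3.08%) against all other T cells. The type I interferon median became 0.16 with at least 2 Ly6c2 UMIs, 0.14 with 2 markers, 0.15 at 1000 genes and 0.12 centred. The cell cycle median became 0.42 at 1000 genes, 0.46 centred and 0.27 without cells with Mki67 or Top2a. The follicular helper and Slamf6 memory median became -0.039 without cells of another lineage's list and -0.028 thinned. Centred medians were -0.0036 for the Th1 programme, -0.12 for T cell identity, -0.020 for cytokine receptors and -0.24 for oxidative phosphorylation. Single genes also reversed. Areg was at -0.72 with at least 2 Ly6c2 UMIs, -1.61 thinned and -0.13 without its highest cell. Iglc2 was at 0.074 with 2 markers. Without Klrk1 and Klrd1, H2-Aa was at -1.34, H2-Ab1 at -1.63, H2-Eb1 at -1.32, Siglech at -0.40 and Tcf4 at -0.025. Without cells of another lineage's list, Cybb was at -0.50 and Tcf4 at -0.67. Thinned, Eomes was at 1.29, H2-Aa at -1.44, H2-Eb1 at -0.12, Siglech at -2.79, Tcf4 at -0.71 and Dcp1b, in members over cells without Ly6c2 in CD27_KO, at -0.56. Without cells with a defining gene of another lineage, Tcf4 was at -0.27 and Tyrobp at -1.20, and without cycling cells Birc5 was at -0.51.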
